A study of Mus musculus with 9 samples.

Results

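Interferon-stimulated genes were followed in RNA sequencing of mouse hippocampus, in 9 libraries from hAPP-J20 transgenic mice (Tg) and mice without the transgene (nTg). The set holds 42 genes, read by symbol from a count table of 55536 genes, and each symbol was found once. Of the 42, 40 passed the filter on low counts, and Oas1b and Ifi44 did not. hAPP-J20 mice carry a mutant human amyloid precursor protein gene under a PDGF-B promoter, which drives it in neurons, and they form amyloid plaques as they age. The groups were Tg at 24 weeks (3 libraries, after plaques), Tg at 15 weeks (3 libraries, before plaques), and nTg, which held replicates 1 and 3 at 24 weeks and replicate 2 at 15 weeks. A name such as Tg_24w_3 joins the genotype, the age and the replicate number. The libraries are labelled biological replicates, with no statement that each is a different animal, so p-values measure only the spread between these samples. Each library's batch label repeats its age, so a batch difference cannot be told apart from an age difference, and the labels give no sex.

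Interferons are secreted alarm proteins. Type I and type III interferons act through JAK kinases on a complex of transcription factors, ISGF3, which binds the interferon-stimulated response element in the promoters of target genes. Interferon-gamma acts mainly on a different element. The targets include RNA sensors, transcription factors, antiviral effectors such as the IFIT, OAS and guanylate-binding families, and brakes on the response such as USP18. In the brain, microglia, endothelium and other cells carry interferon receptors, and interferon-responsive microglia are known around amyloid plaques.

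The promoters of a few of these genes show an element that many of the set share. The windows below run from 250 bases before to 50 bases after the annotated start, written 5′ to 3′ on the gene's strand, from RefSeq on GRCm38.p6. Capitals mark matches to GAAANNGAAA or, for the other strand, TTTCNNTTTC, the repeat at the core of the interferon-stimulated response element. Ifit3 lies at chr19:34583279-34583578 (plus strand), Ifit3b at chr19:34607707-34608006 (plus), Isg15 at chr4:156200769-156201068 (minus), Gbp2 at chr3:142620413-142620712 (plus), Ifitm3 at chr7:141010695-141010994 (minus) and Eif2ak2 at chr17:78882523-78882822 (minus). Ifit3 and Ifit3b are shown as near copies of each other, Isg15 for its run of overlapping matches, and Gbp2, Ifitm3 and Eif2ak2 because they had the smallest p in a comparison below.
Ifit3: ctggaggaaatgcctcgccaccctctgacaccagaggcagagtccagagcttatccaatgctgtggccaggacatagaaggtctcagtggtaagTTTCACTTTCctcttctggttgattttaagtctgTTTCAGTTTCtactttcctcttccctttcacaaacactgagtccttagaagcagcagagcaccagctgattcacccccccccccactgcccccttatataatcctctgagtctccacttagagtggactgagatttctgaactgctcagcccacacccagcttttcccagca
Ifit3b: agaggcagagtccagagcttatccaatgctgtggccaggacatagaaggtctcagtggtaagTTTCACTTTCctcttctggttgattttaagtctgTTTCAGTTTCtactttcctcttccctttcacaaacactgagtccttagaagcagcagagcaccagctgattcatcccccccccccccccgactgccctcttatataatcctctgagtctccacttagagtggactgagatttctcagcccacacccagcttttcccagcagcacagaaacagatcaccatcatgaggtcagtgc
Isg15: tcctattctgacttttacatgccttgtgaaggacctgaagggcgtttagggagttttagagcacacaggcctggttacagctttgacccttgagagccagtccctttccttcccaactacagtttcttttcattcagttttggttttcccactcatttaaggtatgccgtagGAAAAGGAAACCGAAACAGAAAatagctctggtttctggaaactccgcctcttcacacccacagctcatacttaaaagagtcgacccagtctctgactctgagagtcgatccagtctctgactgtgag
Gbp2: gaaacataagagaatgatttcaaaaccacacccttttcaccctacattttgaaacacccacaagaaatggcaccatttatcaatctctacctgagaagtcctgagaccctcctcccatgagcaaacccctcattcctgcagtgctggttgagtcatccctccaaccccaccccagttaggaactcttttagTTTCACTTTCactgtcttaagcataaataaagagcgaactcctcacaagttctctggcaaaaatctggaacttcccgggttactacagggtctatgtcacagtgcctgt
Ifitm3: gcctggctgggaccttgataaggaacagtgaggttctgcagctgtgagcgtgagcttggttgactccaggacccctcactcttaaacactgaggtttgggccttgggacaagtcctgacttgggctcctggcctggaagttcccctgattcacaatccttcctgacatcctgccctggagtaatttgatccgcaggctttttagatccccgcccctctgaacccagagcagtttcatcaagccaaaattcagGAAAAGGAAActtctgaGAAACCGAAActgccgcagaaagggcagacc
Eif2ak2: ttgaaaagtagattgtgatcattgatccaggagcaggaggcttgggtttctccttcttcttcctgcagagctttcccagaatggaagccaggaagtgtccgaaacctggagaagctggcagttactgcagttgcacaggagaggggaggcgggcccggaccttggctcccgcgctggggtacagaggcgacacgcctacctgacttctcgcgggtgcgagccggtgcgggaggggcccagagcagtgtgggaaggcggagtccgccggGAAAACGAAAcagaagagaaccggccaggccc

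Of the 42 genes, 33 had a window in the RefSeq table, and 18 of these (54.5%) held GAAANNGAAA on either strand, against 3.99% of all 27025 genes with a window. The Isg15 window held 3 overlapping matches, starting 78, 72 and 66 bases before the annotated start, and was the richest of the set. In Gbp2 the match lay 59 bases before the start. In Ifitm3 and Eif2ak2 the matches lay past the start, at 2 and 19 bases in Ifitm3 and at 18 bases in Eif2ak2. The palindromic TTCNNNGAA, a STAT-binding element, was found in 10 of the 33 genes (30.3%), against 9.55% of all genes. Both motifs were found in 6 (Bst2, Eif2ak2, Gbp7, Ifitm3, Igtp and Oas1a), which is 18.2% of the 33, against 0.614% of all genes. Ifit3 and Ifit3b carried their matches in the same arrangement, and with Ifit3b shifted by 32 bases the windows were identical at 201 of 268 bases (75%). That comparison allowed no gaps. The run of c differs in length between the windows, so bases past it are out of register and the 75% understates their likeness. A match describes letters in a window and shows no binding. Usp18, Oas2, Oas1b, Dhx58, Ifi27, Iigp1, Rtp4, Parp9 and Parp14 were not matched.

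Library totals ran between 12733452 counts (Tg_24w_3) and 21529266 counts (Tg_15w_3), and in counts-per-million (CPM) units 1 count was worth 0.0464 CPM in the deepest and 0.0785 CPM in the shallowest. Levels between libraries are given below as CPM after TMM scaling in edgeR, and nTg values are listed in replicate order, the middle value being the 15-week library. The table counts mouse genes and holds no separate entry for the human transgene. Mouse App lay at 803 to 1540 CPM in Tg libraries and at 1022 to 1499 CPM in nTg libraries (log2 fold change 0.02 ± 0.20 SE), so it does not check the labels. Markers of the labelled tissue were abundant, with a summed level of 6606 to 7891 CPM for 14 hippocampal neuron genes over the 9 libraries. Tg_24w_3 stood apart over all genes, at 84.6 on the first principal component (37.1% of the variance) against -30.9 to 4.87 in the other 8 libraries. In tissue RNA, fewer cells of a type and less RNA per cell cannot be told apart.

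The interferon genes themselves were almost silent. Of 21 interferon genes in the table, 17 had 0 counts in every library, and the other 4 (Ifna9, Ifna13, Ifna16 and Ifng) had 5 counts in all. Ifng had 1 count in Tg_24w_1 and 1 in Tg_24w_3, and no gene had more than 1 count in a library. Ifnb1 had 0 counts in all 9 libraries. A count of 0 allows up to 3 counts, which is 0.139 CPM in the deepest library and 0.236 CPM in the shallowest, for counting error only.

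The interferon-stimulated genes were present at low but measurable levels. Per transcript length, in the authors' TPM, 14 of the 42 had a median under 1 TPM over the 9 libraries, 21 lay between 1 and 5, 4 between 5 and 20, and 3 above 20. Ifi27, a small membrane protein induced by interferon alpha, stood highest, with a median of 69.0 TPM (46.1 to 98.5). Ifitm3, which blocks virus entry at endosomal membranes, came next at 38.8 TPM, then Adar, the RNA adenosine deaminase, at 21.9 TPM, Lgals3bp at 19.2 TPM and Ifit3 at 13.1 TPM. At the other end Oas2 had a median of 0.200 TPM and Ifi44 of 0.0725 TPM. Of the 41 pairs of neighbours in this order, 40 had overlapping ranges over the libraries; Bst2 at 12.3 TPM and Stat2 at 5.24 TPM were the exception. Read library by library, Ifi27 was above Ifitm3, and Ifitm3 above Adar, in 9 of 9 libraries, and this held for 4 of the 41 pairs in all.

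**Figure D1:**
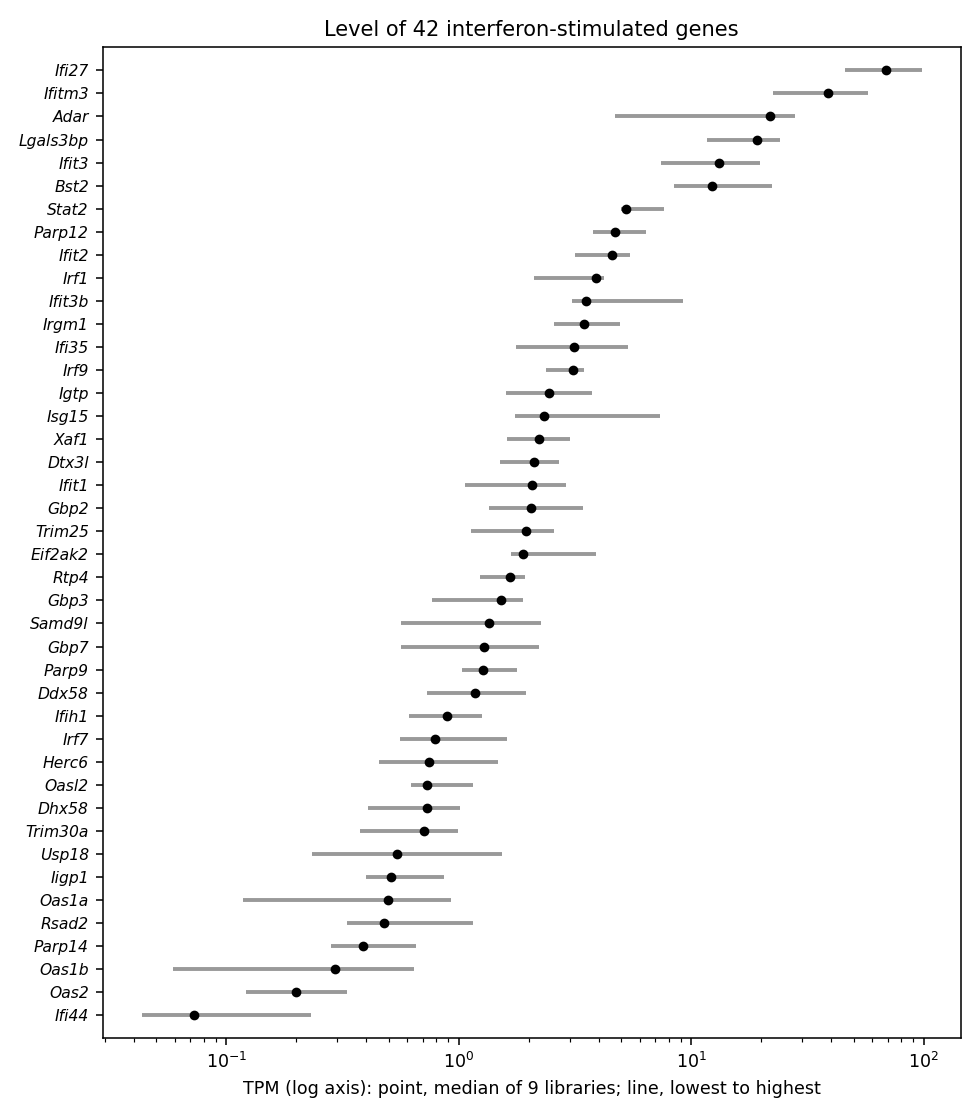
Level of each of the 42 genes in the authors' TPM on a log axis, ordered by the median over the 9 libraries (point), with the lowest and highest library as a line. Ifi27 (69.0 TPM), Ifitm3 (38.8 TPM) and Adar (21.9 TPM) stand at the top and Ifi44 (0.0725 TPM) at the bottom.

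Depth sets how well these levels are known. In at least 1 library, 26 of the 42 genes had under 50 counts, 12 had under 20, and 5 had under 10. Between the highest and the lowest library, the level of the 40 tested genes differed by a median of 2.47-fold, with 31 at 2-fold or more. Irf9 varied least (1.55-fold) and Oas1a most (8.13-fold).

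Many of the genes peaked in the same few libraries. The highest value of a gene was found in Tg_24w_3 for 13 of the 40, in Tg_15w_1 for 11, in Tg_24w_2 for 7, in nTg_24w_1 for 6 and in Tg_24w_1 for 3. The other 4 libraries held none of the highest values. Over all 17457 genes tested, 29.4% were highest in Tg_24w_3, 10.8% in Tg_15w_1, 9.53% in Tg_24w_2 and 17.1% in nTg_24w_1, so the share in Tg_24w_3 (32.5% of the 40) was near that of all genes. The lowest value was found in Tg_15w_3 for 11 genes, in nTg_24w_3 for 10, and in Tg_15w_2 and nTg_15w_2 for 7 each. Set against the median of the other 8 libraries, the 40 genes deviated on the log2 scale by a median of 0.12, 0.17 and 0.36 in Tg_24w libraries, 0.35, -0.19 and -0.31 in Tg_15w libraries, and 0.14, -0.25 and -0.15 in nTg libraries. Thus all 3 Tg_24w libraries, Tg_15w_1 and nTg_24w_1 lay on the high side, and the groups overlapped in this deviation. The mean log2 CPM of the 40 genes was 2.10 ± 0.12 in Tg_24w, 1.84 ± 0.30 in Tg_15w and 1.79 ± 0.17 in nTg libraries (SD, n = 3 each). On this mean the Tg_24w libraries, at 2.005 to 2.232, lay just above the nTg libraries, at 1.658 to 1.982. The Tg_15w libraries, at 1.62 to 2.176, overlapped both.

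**Figure D2:**
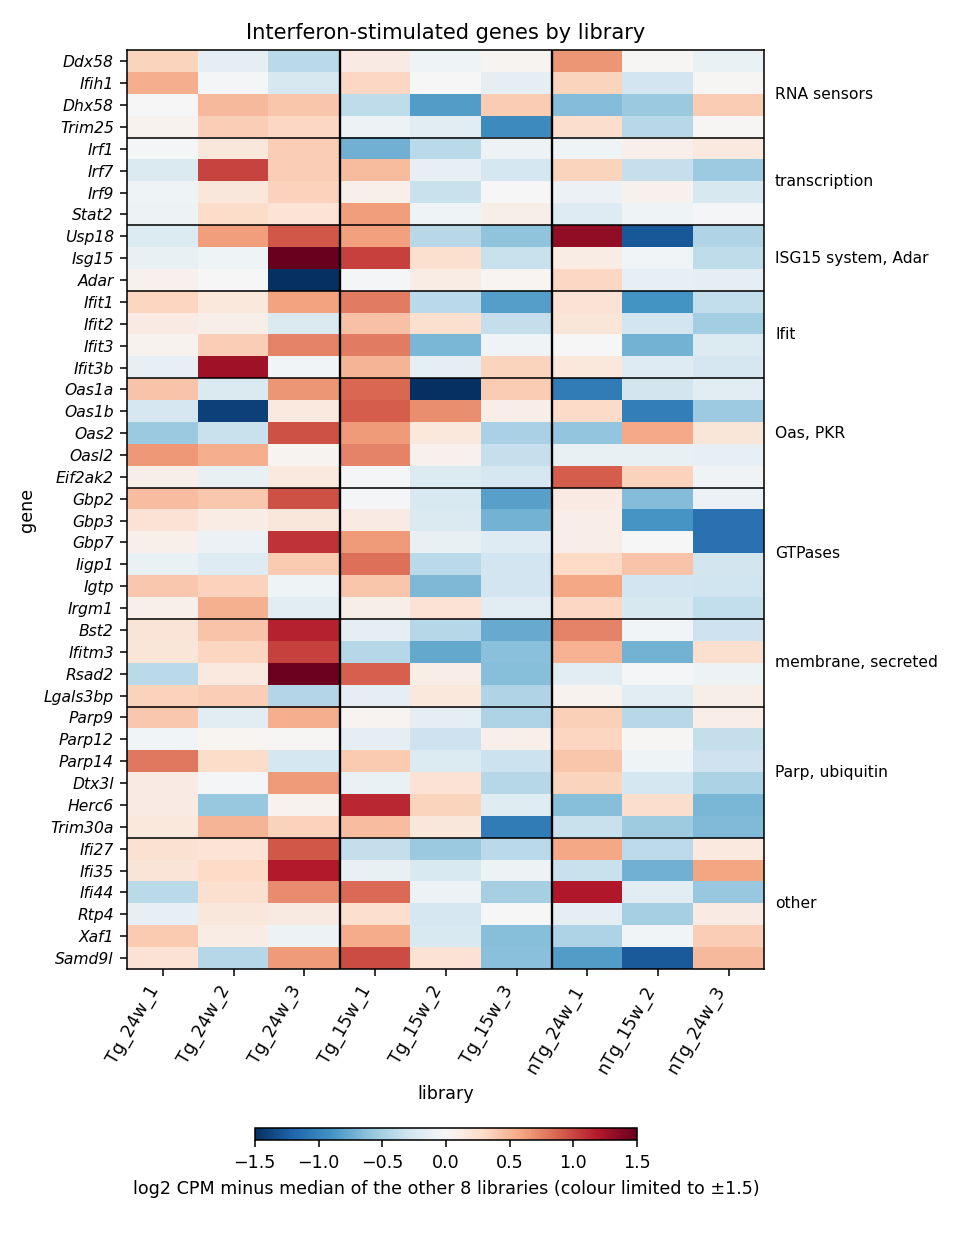
Log2 CPM of each gene minus the median of the other 8 libraries (colour, red above and blue below, limited to ±1.5), with libraries in columns and genes grouped by role. Of the 40 tested genes, 30 lie above 0 in Tg_24w_3, 28 in Tg_24w_2, and 27 each in Tg_24w_1 and Tg_15w_1. In Adar the single deep blue cell is Tg_24w_3.

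After plaques, in Tg at 24 weeks against nTg, no interferon-stimulated gene passed the test. With edgeR's quasi-likelihood test and Benjamini-Hochberg adjustment over 17457 genes, 0 of 40 were called at an adjusted p under 0.05, where 0.132% of all genes were called. At an unadjusted p under 0.05 edgeR had 1 higher and 0 lower, against 7.68% and 5.34% of all genes. DESeq2 also had 1 and 0, against 6.93% and 6.42%, and limma voom 9 and 0, against 9.47% and 8.31%. After adjustment neither of these called a member, where DESeq2 called 1.25% and voom 1.36% of all genes, though DESeq2 gave 2 of the 40 no adjusted p. The estimates were positive for 35 of 40 genes with a median log2 fold change of 0.27, against a median of 0.03 and 53.3% positive over all genes. The 3 Tg_24w libraries lay above all 3 nTg libraries for 5 of 40 genes (Gbp2, Gbp3, Ifit3, Oasl2 and Trim30a), against 9.72% of all genes, and below them for 0 of 40, against 7.14%. Within the 24-week libraries alone, where nTg has 2, the estimate was positive for 31 of 38 genes with a median of 0.18, and 0 were called, where 0% of 17075 genes were. Over single omissions of a library the median ran between 0.211 without Tg_24w_3 and 0.425 without nTg_24w_1.

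Before plaques, in Tg at 15 weeks against the same nTg libraries, the genes were split. Of these 3 nTg libraries 2 were of 24 weeks, so this comparison mixes genotype with age and batch label. Estimates were positive for 22 and negative for 18 of 40, with a median of 0.02. No member was called by edgeR, DESeq2 or voom, where 0%, 0.0115% and 0.0286% of all genes were. At an unadjusted p under 0.05 edgeR had 1 higher (Herc6) and 1 lower (Eif2ak2), against 1.32% and 1.97% of all genes. DESeq2 had 1 and 2, against 1.11% and 2.07%, and voom 3 and 2, against 4.42% and 4.76%. The groups did not overlap for 1 gene, Irf1, which lay lower, against 5.69% of all genes lower and 4.85% higher. Against the nTg_15w library alone the median was 0.26, with 33 of 42 positive and 0 called, where 0% of 19574 genes were. Over single omissions it ran between -0.0885 without Tg_15w_1 and 0.186 without nTg_24w_1. The estimates at 15 weeks thus depended on which libraries were compared. Within each age the medians were 0.26 at 15 weeks, against 1 nTg library, and 0.18 at 24 weeks.

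Between the ages within Tg, plaque stage, age and batch label differ together. In Tg at 24 weeks against Tg at 15 weeks, estimates were positive for 32 of 40 genes with a median of 0.28, against 0.02 over all genes. None passed the adjusted threshold with edgeR, DESeq2 or voom, where 0.0344%, 1.63% and 0.584% of all genes did, though DESeq2 gave 11 members no adjusted p. At an unadjusted p under 0.05 edgeR had 6 higher and 0 lower, against 9.58% and 5.57% of all genes. DESeq2 had 5 and 0, against 9.26% and 6.46%, and voom 6 and 0, against 11% and 8.75%. The groups did not overlap for 7 genes, all higher in Tg_24w (Bst2, Gbp2, Ifi27, Ifi35, Ifitm3, Irf1 and Trim25), against 10.6% of all genes higher and 10.2% lower. Without Tg_15w_1 the median was 0.495, without Tg_15w_2 0.16, without Tg_15w_3 0.161 and without Tg_24w_3 0.219. The same ages compared within nTg, 2 libraries against 1, gave positive estimates for 31 of 42 genes. Their median was 0.20, against 0.01 over all genes.

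Genotype over both ages, and its dependence on age, gave no call. In Tg against nTg with age as a term, 33 of 40 estimates were positive with a median of 0.22, and 0 were called by edgeR, DESeq2 or voom, where 0%, 0.2% and 0.0401% of all genes were; DESeq2 gave 1 member no adjusted p. At an unadjusted p under 0.05 edgeR had 1 higher (Ifit3) and 1 lower (Eif2ak2), against 2.55% and 2.84% of all genes. DESeq2 also had 1 and 1, against 2.29% and 3.48%, and voom 2 and 1, against 3.39% and 3.8%. Without nTg_24w_3 the median was 0.0981 and without Tg_15w_1 0.141. No member separated all 6 Tg from all 3 nTg libraries in either direction, against 1.12% of all genes higher and 1.2% lower. The interaction of genotype and age, which tests whether the genotype difference differs between the ages, was positive for 24 and negative for 18 of 42 genes. Its median was 0.06, turned negative in 5 of 8 single omissions (-0.0792 without nTg_24w_3) and was 0.264 without nTg_24w_1. For it edgeR called 0, where it called 0% of 19574 genes and DESeq2 and voom 0.00511% each. No member was under an unadjusted p of 0.05 in either direction with any of the 3 tools, where edgeR had 0.93% of all genes higher and 1.15% lower, DESeq2 0.669% and 1.06%, and voom 1.05% and 1.06%. That fit rests on 1 library for nTg at 15 weeks, which is assumed to vary like the others. The comparisons share libraries, so their values are given side by side and are not independent of each other.

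**Figure D3:**
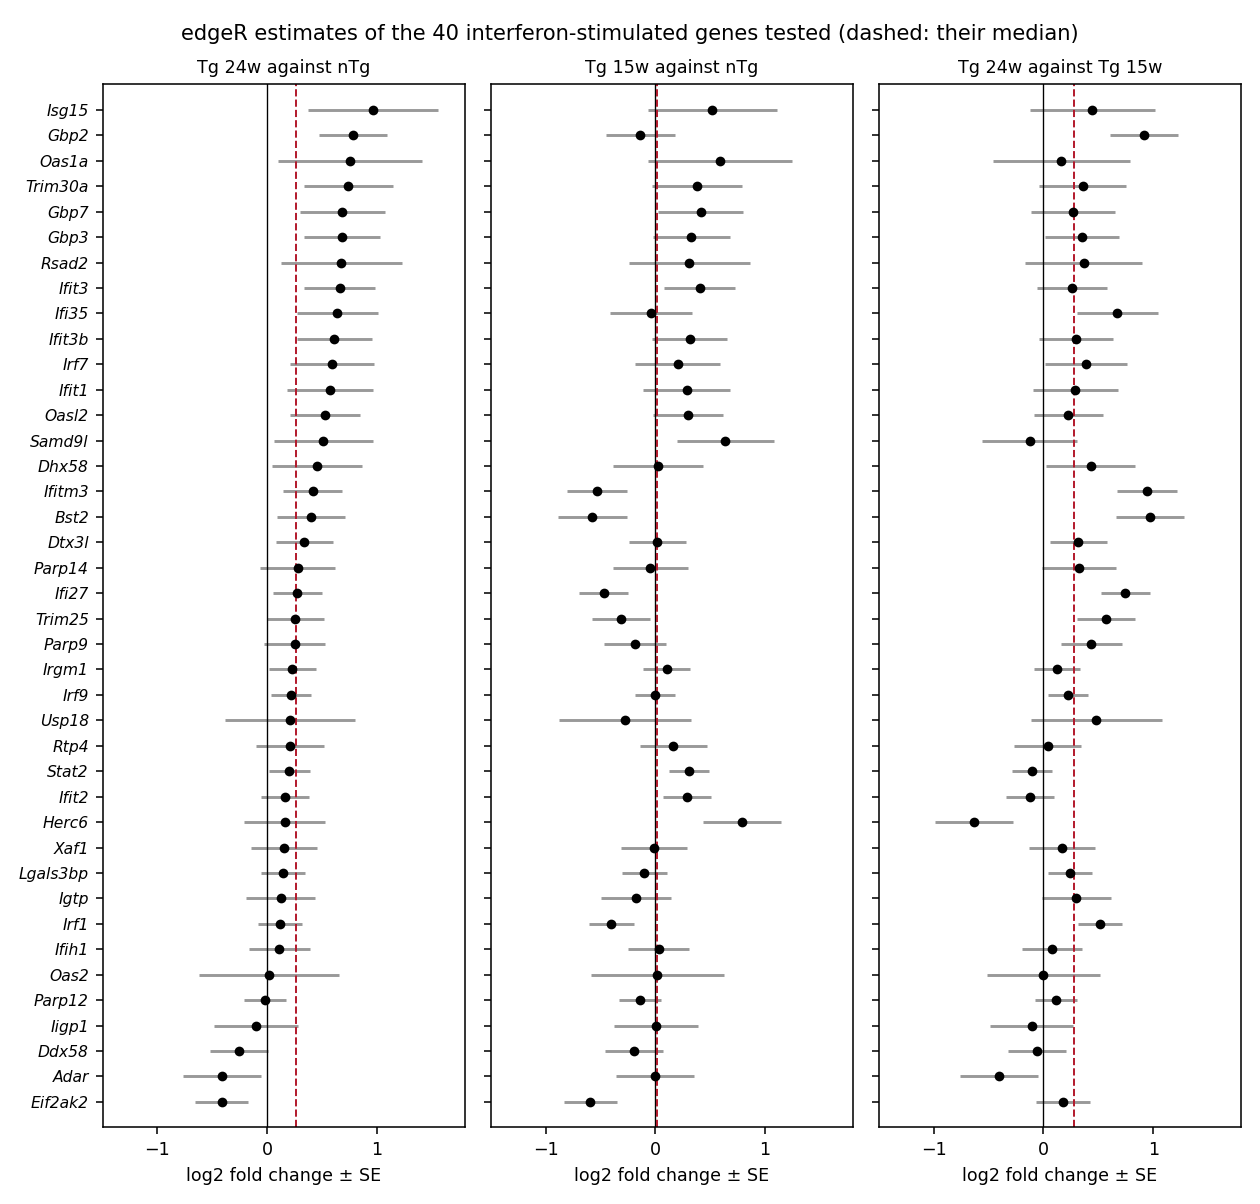
Log2 fold change with its standard error (edgeR) of the 40 genes in the comparisons of Tg 24w with nTg, Tg 15w with nTg, and Tg 24w with Tg 15w, with the genes ordered by the left panel. The dashed medians stand at 0.27, 0.02 and 0.28, and no gene passed the adjusted threshold in any panel. The nTg group pools 2 libraries of 24 weeks and 1 of 15 weeks.

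The RNA sensors recognise viral and other foreign RNA in the cytoplasm. They are Ddx58 (RIG-I), Ifih1 (MDA5), the regulatory relative Dhx58 (LGP2) and Trim25, the ubiquitin ligase that activates RIG-I. Ddx58 had 4.69, 3.45 and 2.84 CPM in Tg_24w libraries, 4.06, 3.64 and 3.83 CPM in Tg_15w libraries and 5.91, 3.77 and 3.55 CPM in nTg libraries. Ifih1 lay between 2.76 and 4.79 CPM in Tg libraries and between 2.68 and 4.12 CPM in nTg libraries. For both sensors the groups overlapped and the lowest Tg_24w value was in Tg_24w_3. Trim25 had 5.30, 6.58 and 6.34 CPM in Tg_24w libraries, 4.98, 4.65 and 2.66 CPM in Tg_15w libraries and 6.16, 3.92 and 5.20 CPM in nTg libraries. All Tg_24w values of Trim25 lay above all Tg_15w values, with a log2 fold change of 0.57 ± 0.26 SE and an adjusted p of 0.329 (edgeR), and without Tg_15w_3 the estimate was 0.33 (adjusted p 0.568, range over the alternatives 0.259 to 0.63). The 2 nTg_24w values were likewise above the nTg_15w value.

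The transcription factors of the set are Stat2 and Irf9, which belong to ISGF3, Irf7, the factor that amplifies type I interferon production, and Irf1, which acts downstream of interferon-gamma. Stat2 and Irf9 were the steadiest. Stat2 averaged 15.9 ± 1.73 CPM in Tg_24w, 17.1 ± 4.35 CPM in Tg_15w and 13.8 ± 0.802 CPM in nTg libraries (SD, n = 3 each). Irf9 averaged 8.37 ± 1.05 CPM in Tg_24w, 7.15 ± 0.943 CPM in Tg_15w and 7.16 ± 0.652 CPM in nTg libraries. Irf1 had 6.71, 7.47 and 8.61 CPM in Tg_24w libraries, 4.12, 5.17 and 6.54 CPM in Tg_15w libraries and 6.59, 7.04 and 7.34 CPM in nTg libraries. The Tg_15w libraries were thus the low ones for Irf1. Its log2 fold change was 0.52 ± 0.20 SE for Tg_24w against Tg_15w (adjusted p 0.274, edgeR), and -0.40 ± 0.20 for Tg_15w against nTg. Without Tg_15w_1 these were 0.34 (adjusted p 0.626, range 0.18 to 0.635) and -0.25 (adjusted p 1, range 0.381 to 1).

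Irf7 was scarce, with 1.26, 2.72 and 1.71 CPM in Tg_24w libraries, 1.83, 1.32 and 1.22 CPM in Tg_15w libraries and 1.66, 1.14 and 0.979 CPM in nTg libraries. Tg_24w_2 stood above every other library. For Tg_24w against nTg the log2 fold change was 0.59 ± 0.38 SE (adjusted p 0.522, edgeR) and 0.18 without Tg_24w_2 (adjusted p 0.86, range 0.335 to 0.924).

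Isg15 encodes the ubiquitin-like protein that is joined to other proteins after interferon, Usp18 removes it and restrains the interferon receptor, and Adar edits double-stranded RNA so that the sensors ignore it. Isg15 had 0.757, 0.783 and 3.09 CPM in Tg_24w libraries, 1.72, 0.951 and 0.631 CPM in Tg_15w libraries and 0.862, 0.794 and 0.612 CPM in nTg libraries. Only Tg_24w_3 and Tg_15w_1 stood apart upward. Its log2 fold change of 0.96 ± 0.59 SE in Tg_24w against nTg (adjusted p 0.501, edgeR) was the highest point estimate among the 40 genes, and without Tg_24w_3 it was 0.02 (adjusted p 0.992, range over the alternatives 0.308 to 0.992). Usp18 was highest in an nTg library, nTg_24w_1 at 1.85 CPM, and lowest in nTg_15w_2 at 0.298 CPM.

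Adar differed in 1 library. It had 82.6 and 79.96 CPM in Tg_24w_1 and Tg_24w_2 but 21.2 CPM in Tg_24w_3, with 78.6, 85.5 and 80.7 CPM in Tg_15w libraries and 98.2, 73.9 and 73.2 CPM in nTg libraries. In raw counts Tg_24w_3 had 261 and the other libraries 1196 to 1789. Apart from Tg_24w_3 the Tg and nTg values overlapped throughout. Of the 50-base words of the longest Adar transcript, 20.1% also occur in Chrnb2, a gene on the opposite strand that overlaps it, and the strand setting of the counting is not given in the sources used here.

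The Ifit proteins bind foreign RNA and stop its translation, and their genes lie next to each other on chromosome 19. All 4 had positive estimates in Tg_24w against nTg (median log2 fold change 0.59) and in Tg_15w against nTg (median 0.30), with none called. Ifit3 had 10.1, 12.6 and 16.4 CPM in Tg_24w libraries, 16.9, 6.18 and 9.60 CPM in Tg_15w libraries and 9.91, 6.05 and 8.69 CPM in nTg libraries. The Tg_24w values lay above the nTg values, but the margin between Tg_24w_1 and nTg_24w_1 was small, and the highest library was Tg_15w_1. The log2 fold change was 0.66 ± 0.32 SE for Tg_24w against nTg (adjusted p 0.404, edgeR), 0.41 ± 0.32 for Tg_15w against nTg and 0.61 ± 0.28 for Tg against nTg (adjusted p 0.857).

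Ifit3b, the near copy of Ifit3 whose promoter is printed above, did not follow it library by library. It had 3.28, 8.25 and 3.41 CPM in Tg_24w libraries, 4.81, 3.22 and 4.24 CPM in Tg_15w libraries and 3.75, 3.12 and 2.998 CPM in nTg libraries. Tg_24w_2 alone was far above the rest. The log2 fold change of Tg_24w against nTg was 0.61 ± 0.34 SE (adjusted p 0.46, edgeR) and -0.01 without Tg_24w_2 (adjusted p 0.984, range over the alternatives 0.262 to 0.984). For Tg against nTg it was 0.50 ± 0.31, and 0.14 without Tg_24w_2. Of the 50-base words of Ifit3, 51.2% also occur in Ifit3b, so how the counting split shared reads bears on both. Ifit1 averaged 2.84 ± 0.449, 2.33 ± 1.28 and 1.90 ± 0.617 CPM, and Ifit2 averaged 7.93 ± 0.676, 8.68 ± 2.02 and 7.10 ± 1.52 CPM, in Tg_24w, Tg_15w and nTg libraries (SD, n = 3 each). In both genes the groups overlapped.

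The OAS proteins make the short adenylate chains that switch on RNase L, and Eif2ak2 encodes PKR, the kinase that halts translation when it meets double-stranded RNA. Oas1a, Oas1b and Oas2 were near the limit of detection, at 0.0522 to 0.858 CPM over the 9 libraries. Oas1a shares 57.6% of its 50-base words with Oas1g and is uncertain for that reason. Oas1b, too low for the other tests, had 0.252, 0.0522 and 0.325 CPM in Tg_24w libraries, 0.629, 0.528 and 0.316 CPM in Tg_15w libraries and 0.369, 0.0992 and 0.184 CPM in nTg libraries. Its interaction estimate was -2.66 ± 1.54 SE (adjusted p 1, edgeR), on values of few counts. Oasl2, an OAS-like protein, had 3.38, 3.13 and 2.19 CPM in Tg_24w libraries, 3.60, 2.22 and 1.71 CPM in Tg_15w libraries and 2.03, 2.03 and 2.02 CPM in nTg libraries. The nTg values were nearly the same, and Tg_24w lay above them with a log2 fold change of 0.53 ± 0.32 SE (adjusted p 0.492).

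Eif2ak2 had negative estimates in all comparisons with nTg. It had 4.85, 4.33 and 5.04 CPM in Tg_24w libraries, 4.58, 4.07 and 3.92 CPM in Tg_15w libraries and 8.62, 5.80 and 4.53 CPM in nTg libraries. Its log2 fold change was -0.42 ± 0.24 SE for Tg_24w against nTg (adjusted p 0.475, edgeR), -0.59 ± 0.24 for Tg_15w against nTg (adjusted p 1) and -0.47 ± 0.21 for Tg against nTg (adjusted p 0.857). The Tg values were close together, and the spread lay among the nTg libraries. Without nTg_24w_1 the estimates were -0.13 (adjusted p 0.853, range 0.391 to 0.913), -0.31 (adjusted p 1, range 0.431 to 1) and -0.22 (adjusted p 1, range 0.617 to 1).

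The interferon-inducible GTPases assemble on the membranes that enclose pathogens. Gbp2, Gbp3 and Gbp7 belong to the guanylate-binding family, clustered on chromosome 3, and Irgm1, Igtp and Iigp1 to the immunity-related family. Gbp2 had 3.38, 3.24 and 4.79 CPM in Tg_24w libraries, 2.46, 2.17 and 1.40 CPM in Tg_15w libraries and 2.65, 1.59 and 2.39 CPM in nTg libraries. Every Tg_24w value was above every other library, while Tg_15w and nTg overlapped. Gbp2 had the smallest p of the set for Tg_24w against nTg, with a log2 fold change of 0.78 ± 0.31 SE and an adjusted p of 0.339 (edgeR). Against Tg_15w it was 0.92 ± 0.31 (adjusted p 0.235), for Tg against nTg 0.49 ± 0.26 (adjusted p 0.857), and for Tg_15w against nTg -0.14 ± 0.32.

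Gbp3 had 2.88, 2.66 and 2.76 CPM in Tg_24w libraries, 2.69, 2.27 and 1.58 CPM in Tg_15w libraries and 2.65, 1.39 and 1.16 CPM in nTg libraries. Its Tg_24w values hardly varied and were only just above nTg_24w_1. The log2 fold change was 0.68 ± 0.35 SE for Tg_24w against nTg (adjusted p 0.419, edgeR) and 0.58 ± 0.30 for Tg against nTg (adjusted p 0.857). Without nTg_24w_1 they were 1.11 (adjusted p 0.365, range 0.109 to 0.913) and 0.92 (adjusted p 1, range 0.594 to 1), and without nTg_24w_3 the estimate for Tg against nTg was 0.33.

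Gbp7 was set by single libraries, with 3.38, 3.13 and 6.91 CPM in Tg_24w libraries, 5.04, 3.06 and 2.88 CPM in Tg_15w libraries and 3.45, 3.27 and 1.47 CPM in nTg libraries. Its log2 fold change of Tg_24w against nTg was 0.68 ± 0.39 SE (adjusted p 0.469, edgeR), 0.24 without Tg_24w_3 (adjusted p 0.839) and 0.39 without nTg_24w_3 (adjusted p 0.683, range over the alternatives 0.348 to 0.913). The immunity-related GTPases showed no such separation. Irgm1 averaged 10.1 ± 2.36 CPM in Tg_24w, 9.34 ± 0.979 CPM in Tg_15w and 8.71 ± 1.98 CPM in nTg libraries. Igtp averaged 2.64 ± 0.321, 2.16 ± 0.702 and 2.44 ± 0.713 CPM, and Iigp1 1.49 ± 0.263, 1.59 ± 0.751 and 1.57 ± 0.315 CPM, in the same order (SD, n = 3 each).

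The smallest p between the ages belonged to Ifitm3, Ifi27 and Bst2, which all encode membrane proteins. Ifitm3 had 12.3, 13.3 and 21.8 CPM in Tg_24w libraries, 9.21, 7.23 and 8.03 CPM in Tg_15w libraries and 15.3, 7.54 and 12.6 CPM in nTg libraries. All 5 libraries of 24 weeks, Tg and nTg alike, lay above all 4 libraries of 15 weeks. In Tg_24w against Tg_15w its log2 fold change was 0.94 ± 0.27 SE, the smallest p of the set in that comparison, with an adjusted p of 0.215 (edgeR). The nTg libraries alone gave 0.88 ± 0.35 for 24 weeks against 15 weeks, with 2 libraries against 1 and an adjusted p of 1. Against nTg, Ifitm3 was at 0.41 ± 0.27 in Tg_24w (adjusted p 0.523) and at -0.53 ± 0.27 in Tg_15w (adjusted p 1). Within each age these differences were 0.14 at 24 weeks and 0.11 against the nTg_15w library alone, and without Tg_24w_3 that for Tg_24w against pooled nTg was 0.11 (adjusted p 0.892, range 0.193 to 0.961).

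Ifi27, the highest of the set per length, had 48.7, 48.2 and 79.5 CPM in Tg_24w libraries, 37.0, 32.2 and 35.8 CPM in Tg_15w libraries and 62.5, 36.1 and 46.9 CPM in nTg libraries. Again every 24-week library stood above every 15-week library. The log2 fold change of Tg_24w against Tg_15w was 0.75 ± 0.22 SE (adjusted p 0.22, edgeR), and 0.46 without Tg_24w_3 (adjusted p 0.347, range 0.00426 to 0.613). In nTg, 24 weeks against 15 weeks gave 0.59 ± 0.31. Tg_15w against pooled nTg gave -0.47 ± 0.22 (adjusted p 1), which was -0.05 against the nTg_15w library alone and -0.25 without nTg_24w_1.

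Bst2 encodes tetherin, which holds budding virus at the cell surface. It had 5.65, 6.68 and 11.1 CPM in Tg_24w libraries, 4.81, 3.96 and 3.11 CPM in Tg_15w libraries and 8.31, 5.06 and 4.28 CPM in nTg libraries. Here the nTg libraries did not split by age, nTg_24w_3 being below nTg_15w_2. The log2 fold change of Tg_24w against Tg_15w was 0.97 ± 0.31 SE (adjusted p 0.229, edgeR), and 0.64 without Tg_24w_3 (adjusted p 0.394, range 0.016 to 0.613). Tg_15w against nTg gave -0.57 ± 0.31 (adjusted p 1), -0.36 against the nTg_15w library alone and -0.25 without nTg_24w_1.

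Over all 9 libraries, with genotype as a term, 24 weeks against 15 weeks was also fitted, a fit chosen after these values were seen. It gave positive estimates for 34 of 40 genes with a median of 0.24, and no member was called, where 0% of all genes were. At an unadjusted p under 0.05 edgeR had 7 higher and 1 lower (Herc6), against 6.43% and 4% of all genes. Ifitm3 stood at 0.93 ± 0.18 SE, Ifi27 at 0.70 ± 0.17, Gbp2 at 0.84 ± 0.24 and Trim25 at 0.56 ± 0.21 (adjusted p 0.458 each, edgeR). For 3 of 40 genes (Ifi27, Ifitm3 and Trim25) all 24-week libraries were above all 15-week libraries, against 1.58% of all genes, and for none were they all below, against 1.46%. With the filter on low counts removed, Ifitm3, Ifi27 and Bst2 passed the threshold in Tg_24w against Tg_15w, at log2 fold changes of 0.92, 0.72 and 0.95 and adjusted p of 0.00211, 0.00426 and 0.016 (edgeR), in a fit that called 701 of 34937 genes (2.01%), against 6 of 17457 with the filter.

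**Figure D4:**
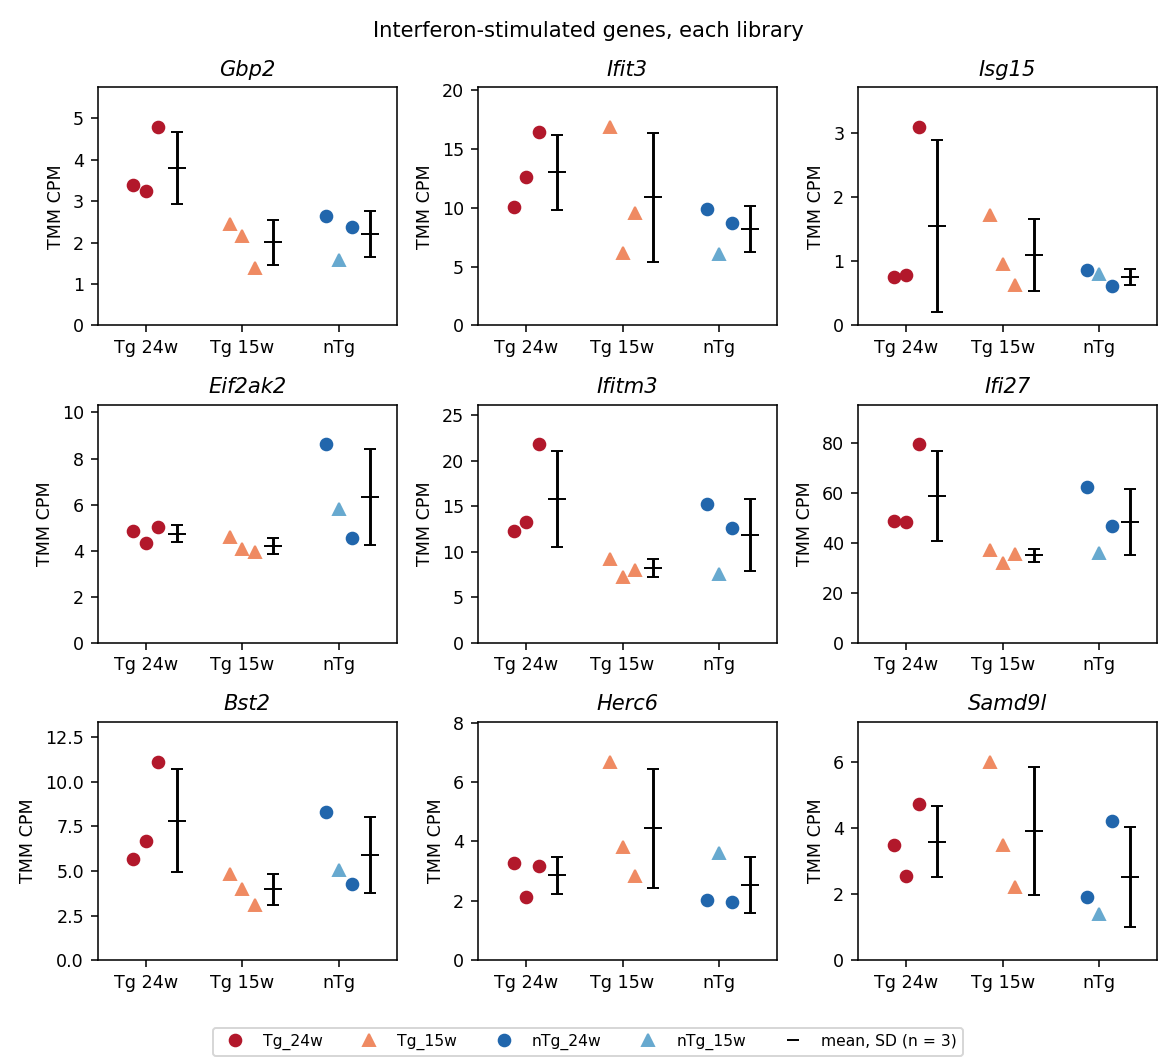
TMM CPM of 9 of the genes in each library (circles 24 weeks, triangles 15 weeks; Tg red and orange, nTg blue), with the group mean and SD (n = 3) beside the points. In Ifitm3 and Ifi27 the nTg triangle sits with the Tg 15w points (7.54 and 36.1 CPM), while in Isg15 the Tg 24w mean rests on 1 library at 3.09 CPM.

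Of the other membrane and secreted members, Rsad2 encodes viperin, which makes a chain-terminating nucleotide, and Lgals3bp is a secreted galectin-binding glycoprotein. Rsad2 had 0.707, 1.04 and 2.76 CPM in Tg_24w libraries, 1.83, 1.003 and 0.586 CPM in Tg_15w libraries and 0.862, 0.943 and 0.918 CPM in nTg libraries. As for Isg15, Tg_24w_3 and Tg_15w_1 were the highest. Lgals3bp had 30.4, 30.7 and 18.5 CPM in Tg_24w libraries, 22.8, 26.7 and 18.3 CPM in Tg_15w libraries and 24.9, 22.3 and 25.3 CPM in nTg libraries, with overlapping groups and Tg_24w_3 low.

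The ADP-ribosylating and ubiquitin-linked members modify proteins during the response. Parp9 and its partner, the ubiquitin ligase Dtx3l, lie head to head on chromosome 16 and overlap, and Parp14 lies near them. Dtx3l averaged 6.47 ± 1.58 CPM in Tg_24w, 5.16 ± 1.04 CPM in Tg_15w and 5.10 ± 1.43 CPM in nTg libraries (SD, n = 3 each). Parp9 averaged 3.64 ± 0.824, 2.68 ± 0.424 and 3.05 ± 0.739 CPM, Parp12 8.88 ± 0.133, 8.18 ± 1.06 and 9.01 ± 2.05 CPM, and Parp14 2.07 ± 0.693, 1.68 ± 0.383 and 1.73 ± 0.383 CPM, in the same order. In none of these did the Tg_24w and nTg libraries separate. Trim30a, a mouse restraint on inflammatory signalling, had 1.41, 1.83 and 1.62 CPM in Tg_24w libraries, 1.77, 1.43 and 0.631 CPM in Tg_15w libraries and 1.11, 0.943 and 0.857 CPM in nTg libraries. Its Tg_24w values lay above the nTg values, with a log2 fold change of 0.74 ± 0.41 SE (adjusted p 0.45, edgeR), and for Tg against nTg it was 0.60 ± 0.37 (adjusted p 0.857).

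Herc6 is the main ligase for ISG15 in mice. It had 3.28, 2.14 and 3.17 CPM in Tg_24w libraries, 6.69, 3.80 and 2.84 CPM in Tg_15w libraries and 2.03, 3.62 and 1.96 CPM in nTg libraries. Its 3 highest values were in Tg_15w_1, Tg_15w_2 and nTg_15w_2. In Tg_15w against nTg its log2 fold change was 0.79 ± 0.36 SE (adjusted p 1, edgeR). It was 0.38 without Tg_15w_1 and 0.28 against the nTg_15w library alone (adjusted p 1 each, range over the alternatives 0.692 to 1). Of its 50-base words, 23.8% also occur in the predicted gene Gm45193.

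Among the remaining members, Ifi35 binds the signalling adaptor NMI. It had 2.52, 2.72 and 5.12 CPM in Tg_24w libraries, 2.17, 2.01 and 2.21 CPM in Tg_15w libraries and 1.85, 1.39 and 3.37 CPM in nTg libraries. Tg_24w lay above Tg_15w but not above nTg_24w_3. Its log2 fold change for Tg_24w against nTg was 0.64 ± 0.37 SE (adjusted p 0.478, edgeR), 0.26 without Tg_24w_3, 0.39 without nTg_15w_2, 1.07 without nTg_24w_3 and 0.35 within the 24-week libraries (adjusted p 0.825, 0.777, 0.388 and 0.936, range 0.255 to 0.936).

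Samd9l, which restrains translation and cell growth, had 3.48, 2.56 and 4.71 CPM in Tg_24w libraries, 6.01, 3.48 and 2.21 CPM in Tg_15w libraries and 1.91, 1.39 and 4.22 CPM in nTg libraries. Its interaction estimate was -1.26 ± 0.76 SE (adjusted p 1, edgeR) and -0.59 without nTg_24w_3 (adjusted p 0.945, range 0.542 to 1). Xaf1, a promoter of apoptosis, lay at 3.11 to 6.92 CPM in Tg libraries and 3.51 to 6.06 CPM in nTg libraries. Rtp4, a receptor transporter protein, was among the steadiest, at 1.73 ± 0.142 CPM in Tg_24w, 1.68 ± 0.260 CPM in Tg_15w and 1.501 ± 0.294 CPM in nTg libraries. Ifi44, too low for the main test, lay at 0.135 to 0.458 CPM in Tg libraries and 0.122 to 0.616 CPM in nTg libraries.

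The levels of the genes that carry the signal covered a wide range. Of 19 receptor and JAK-STAT genes, 18 were tested in Tg_24w against nTg, with 12 positive, a median of 0.14 and 0 called. Ifnar1 lay at 28.0 to 35.02 CPM in Tg libraries and 29.7 to 30.2 CPM in nTg libraries, while Ifnlr1, a subunit of the type III receptor, lay at 0.0451 to 0.454 CPM in Tg libraries and 0.248 to 0.739 CPM in nTg libraries. Of 20 nucleic acid sensing genes 16 were tested, with 12 positive, a median of 0.22 and 0 called. Trex1 of this list had 0 counts in all 9 libraries, but overlap with other genes was looked at only for the members of the set. Unc93b1, which carries Toll-like receptors to endosomes, had the smallest p of these, at 17.7, 13.6 and 18.2 CPM in Tg_24w libraries against 11.8, 10.7 and 13.2 CPM in nTg libraries (adjusted p 0.303).

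A further list held 62 interferon-induced genes outside the set. Of the 42 tested in Tg_24w against nTg, 32 were positive with a median of 0.19 and 0 were called. Psmb9, an immunoproteasome subunit, had 2.67, 3.39 and 3.25 CPM in Tg_24w libraries, 1.14, 1.37 and 2.07 CPM in Tg_15w libraries and 1.48, 0.943 and 1.10 CPM in nTg libraries. Its log2 fold change for Tg_24w against nTg was 1.40 ± 0.33 SE with an adjusted p of 0.158 (edgeR). Psmb10, of the same complex, was at 0.86 ± 0.21 (adjusted p 0.18), Ube2l6, the conjugating enzyme for ISG15, at 0.66 ± 0.18 (adjusted p 0.248) and Gbp5 at 1.12 ± 0.46 (adjusted p 0.349). For Psmb9, Psmb10 and Ube2l6 all Tg_24w values lay above all other libraries. Of the 42 tested, Tg_24w lay wholly above nTg for 7 and wholly below for 3, against 9.72% and 7.14% of all genes. At an unadjusted p under 0.05 (edgeR) 5 were higher and 0 lower, against 7.68% and 5.34%. Mx1, a classical interferon target, lay at 0 to 0.353 CPM in the 9 libraries and was not tested.

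Markers of other cells also differed between libraries. In Tg_24w against nTg, 11 of 15 microglia markers had positive estimates (median 0.09, 0 called), and their summed level was 622 to 748 CPM in Tg_24w, 563 to 580 CPM in Tg_15w and 509 to 631 CPM in nTg libraries. For endothelium, 13 of 15 were positive (median 0.15, 0 called), with sums of 190 to 328 CPM, 168 to 269 CPM and 188 to 241 CPM in the same order. For blood, 4 of 5 tested were positive (median 0.98, 0 called), with sums of 145 to 785 CPM, 202 to 277 CPM and 168 to 311 CPM. Tg_24w_3 had the highest endothelial and blood sums, and its microglia sum was the lowest of the Tg_24w group. Meningeal markers summed to 315 to 397 CPM in Tg_24w, 238 to 339 CPM in Tg_15w and 226 to 310 CPM in nTg libraries. For them 9 of 14 were positive (median 0.44, 0 called), and Dcn had the smallest adjusted p (0.0908, edgeR). Choroid plexus markers were negative for 15 of 15 (median -0.27, 0 called), with sums of 1928 to 6796 CPM, 1873 to 3984 CPM and 5197 to 6970 CPM. Of 16 markers of peripheral myeloid cells and lymphocytes, 6 were tested and all 6 were positive (median 0.39, 0 called), 9 had 0 counts in at least 1 library, and the sums were 11.96 to 16.0 CPM, 10.6 to 15.1 CPM and 6.60 to 11.1 CPM. No marker list apart from this one had a gene at 0 in any library. Astrocyte markers were positive for 3 of 10 (median -0.10, 0 called). Their sums were 3374 to 4072 CPM in Tg_24w, 4459 to 4688 CPM in Tg_15w and 4508 to 4844 CPM in nTg libraries. Oligodendrocyte markers were positive for 2 of 10 (median -0.24, 0 called), with sums of 4139 to 5309 CPM, 4214 to 4951 CPM and 5460 to 6497 CPM. Of 14 neuron markers 5 were positive (median -0.06) and 1, Dsp, was called lower (adjusted p 0.000386, edgeR), against 0.132% of all genes. At an unadjusted p under 0.05 (edgeR), 5 of 14 meningeal markers were higher and 1 lower, against 7.68% and 5.34% of all genes. For microglia 5 of 15 were higher and 0 lower, for endothelium 2 of 15 and 0, and for blood 3 of 5 and 0. Choroid plexus had 0 of 15 higher and 2 lower, and the peripheral list 1 of 6 and 0. Astrocyte markers had 1 of 10 higher and 3 lower, oligodendrocyte 0 of 10 and 2, and neuron 3 of 14 and 2. The part of these markers in the values of the interferon-stimulated genes was not tested.

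**Figure D5:**
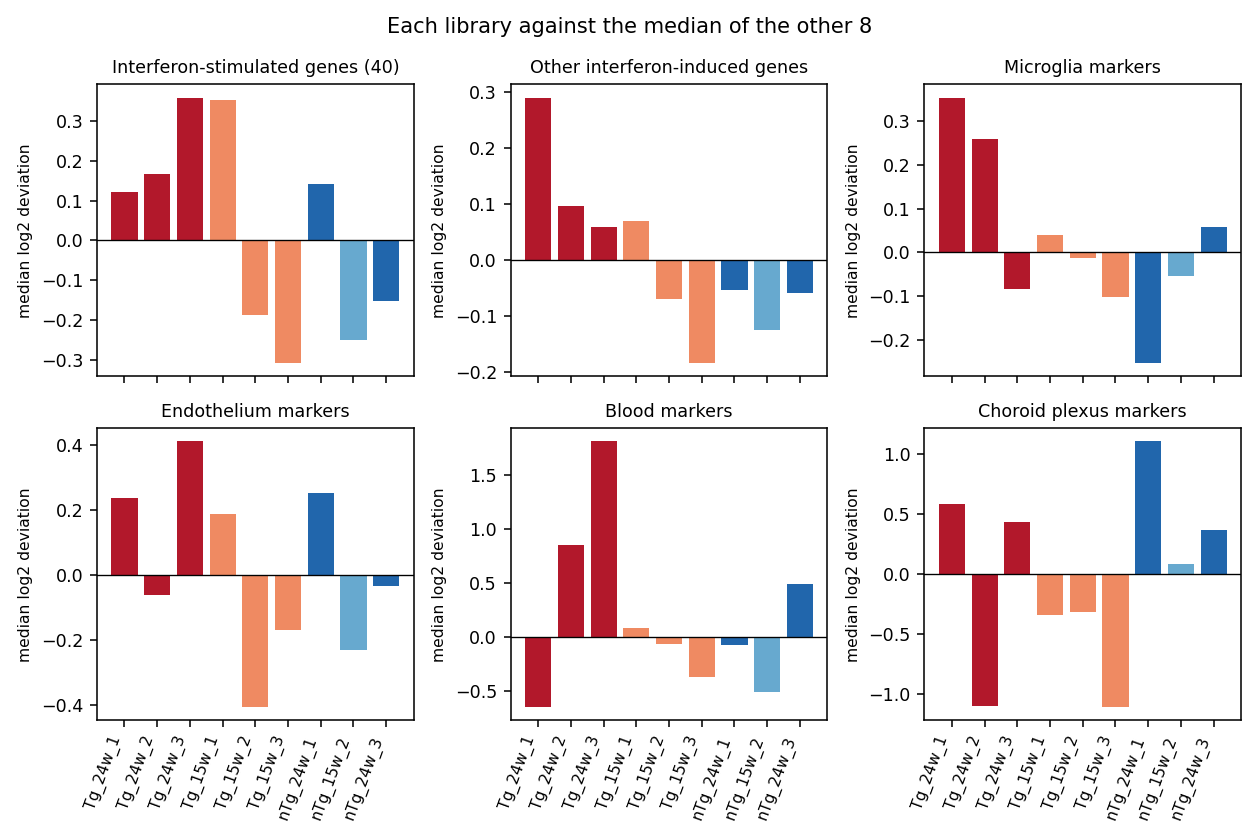
Median log2 deviation of each library from the median of the other 8 (bars from 0; Tg 24w red, Tg 15w orange, nTg blue), for the 40 interferon-stimulated genes, a further interferon-induced list and 4 marker lists. Tg_24w_3 is highest for the interferon-stimulated genes (0.36), endothelium (0.41) and blood (1.81), and below 0 for microglia (-0.08). Tg_15w_1 is near it for the interferon-stimulated genes (0.35), with endothelium at 0.19, blood at 0.08 and microglia at 0.04.

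Summed over all 42 genes, the level was 320 to 333 CPM in Tg_24w, 265 to 323 CPM in Tg_15w and 263 to 355 CPM in nTg libraries, and the highest sum was in nTg_24w_1. Without Adar, which was low in Tg_24w_3 alone, the sum was 241 to 298 CPM in Tg_24w, 184 to 244 CPM in Tg_15w and 190 to 257 CPM in nTg libraries, and the highest was in Tg_24w_3. The groups overlapped in both sums.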

How the data were processed

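For 9 libraries of mouse hippocampus the authors deposited a table of raw gene counts, and TPM values of the same libraries. Per the labels' protocols, a RareRNA kit (Genepure) gave the RNA and a KAPA mRNA HyperPrep kit (Roche) the libraries. HISAT2 2.1.0, featureCounts 2.0.0, Trimmomatic 0.38, CASAVA, DESeq2 1.26.0 and the build GRCm38 are listed, per the submitters' processing notes, with no settings. Which annotation release and strand setting were used is not given in the sources used here. All 55536 gene identifiers had the same start and end in GENCODE M21, used for chromosomes, overlaps and shared 50-base words. The deposited FPKM values were not used.

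Counts as deposited were tested with edgeR 4.0.16 in R 4.3.3 (glmQLFit, glmQLFTest, TMM factors, filterByExpr), two-sided, with Benjamini-Hochberg adjustment over all genes tested and a threshold of 0.05. A fit with 3 groups over all 9 libraries gave Tg 24w against nTg, Tg 15w against nTg and Tg 24w against Tg 15w. Tg against nTg had age as a term, and the interaction came from a fit with 4 groups. Standard errors were taken as the size of the log2 fold change over the root of its F statistic. Deviations and means of log2 CPM used a prior count of 2. TPM, as deposited, served only to compare levels between genes. The steps were tested on simulated counts. Total counts per library of 12733452 to 21529266 limit precision, and the limit for a count of 0 is 3 counts.

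The genes of the set, the further lists and the comparisons were chosen with earlier results of these data known, so no test was made over a list. Fold changes are printed for the 12 members of smallest p in Tg 24w against nTg, the 6 of smallest p in the next 3 comparisons and the 2 of smallest p for the interaction, and for these genes in other comparisons. Of each further list up to 4 genes of smallest p in Tg 24w against nTg are named. Alternatives were DESeq2 1.42.0, limma 3.58.1 voom with sample quality weights, RLE size factors, no filter on low counts, a replicate block, libraries of a single age, and leaving out libraries. The age term over all 9 libraries and the joint omission of Tg_24w replicate 3 and Tg_15w replicate 1 were added after seeing the data. Promoter windows came from a RefSeq table on GRCm38.p6 and were searched on both strands, overlapping matches counted.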

Additional observations from a re-analysis of the deposited data

Results flagged for a closer look

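Among the 6 Tg libraries, 6 of 42 genes had a library that lay far from the other 5, its gap to the nearest library, as a share of the whole range, being past Dixon's 95% critical value for 6 samples. Chance gives about 1 in 20 groups, but among all 17457 genes tested 15% had such a library, which was Tg_24w_3 for 85.7% of them, so the share among the 42 (14.3%) was near that of all genes. Adar was lowest in Tg_24w_3 at 21.2 CPM, with the other Tg libraries at 78.6 to 85.5 CPM. Ifi27 was highest in Tg_24w_3 at 79.5 CPM, against 32.2 to 48.7 CPM in the others, and Ifi35 was highest in the same library at 5.12 CPM, against 2.01 to 2.72 CPM. Ifit3b was highest in Tg_24w_2 at 8.25 CPM, against 3.22 to 4.81 CPM. Herc6 was highest in Tg_15w_1 at 6.69 CPM, against 2.14 to 3.80 CPM. Trim30a was lowest in Tg_15w_3 at 0.631 CPM, against 1.41 to 1.83 CPM. Tg_24w_3, the shallowest library at 12733452 counts, accounts for 3 of the 6. The part of depth in these values was not tested.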

How the results depend on the processing

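Over the 32 pairs of gene and comparison named by the rule, 502 alternative estimates were computed, and 497 kept their direction and their side of the threshold. The direction changed in 2. Ifit3b in Tg 24w against nTg was -0.01 without Tg_24w_2, in a range of -0.01 to 0.83 over single omissions (0.90 without both Tg_24w_3 and nTg_24w_1), and Ifitm3 in Tg 15w against nTg was 0.11 against the nTg_15w library alone. Without the filter on low counts 3 genes passed in Tg 24w against Tg 15w (Ifitm3, Ifi27 and Bst2), against 0 with it; the cause was not tested. The median over the set in Tg 15w against nTg was 0.261 against the nTg_15w library alone. Over single omissions the medians ran between 0.211 and 0.425 in Tg 24w against nTg, -0.0885 and 0.186 in Tg 15w against nTg, 0.16 and 0.495 in Tg 24w against Tg 15w, 0.0981 and 0.287 in Tg against nTg, and -0.0792 and 0.264 for the interaction. No other alternative called a member. Over all genes, 17457 with the filter and 34937 without it, the number of calls also moved. In Tg 24w against nTg there were 23 with edgeR, 218 with DESeq2, 238 with voom, 559 without the filter and 15 with the replicate block. In Tg 24w against Tg 15w there were 6, 284, 102, 701 and 4. The 701 are 2.01% of all genes in that fit, where 3 of 42 members were called. Same-numbered libraries did not deviate together (r between -0.237 and 0.29 over 9 pairs), and with the replicate block 0 members were called, with medians of 0.271, 0.032, 0.293, 0.22 and 0.126 in the 5 comparisons. The interaction and the contrast of Tg_15w with the nTg_15w library alone have no value without that library. Under 20 counts in a library for 12 genes limits what can be told of the scarcest members.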
